A study of Mus musculus with 11 samples.

Results

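The genes described here encode the nuclear subunits of complexes III, IV and V, the last steps of oxidative phosphorylation. They were taken by name from the count table, as every row starting with Uqcr, Cox4i, Cox5, Cox6, Cox7, Cox8 or Atp5, plus Cyc1, without names ending in -ps. This gave 44 of the 50600 genes listed, while 4 pseudogene names were left out. Of the 44, 9 belong to complex III, 18 to complex IV, 15 to complex V, and 2, Atp5s and Atp5sl, are named alike but encode no subunit. A filter on low counts was passed by 42 of the 44. The exceptions were Cox8c, with 0 counts in every library, and Cox7b2, with 0 to 2 counts per library.

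C57BL/6 mice underwent pulmonary artery banding (PAB) or a sham operation on P0, the day of birth. PAB narrows the vessel that leaves the right ventricle and so raises the pressure that this ventricle works against, and the sham group had the same operation without the band. RNA was taken at P3 or P7 (3 or 7 days of age), from hearts by the labels and from ventricles by the study's methods, so that the loaded right ventricle and the left ventricle were sequenced together. There were 3 libraries each of sham and PAB hearts at P3, 3 of sham hearts at P7 and 2 of PAB hearts at P7, and nothing in the labels says whether a library was 1 heart or several. If libraries of a group are not separate hearts, the p-values measure technical spread alone.

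Complex III (the cytochrome bc1 complex) passes electrons from ubiquinol to cytochrome c, and complex IV (cytochrome c oxidase) passes them on to oxygen. Complex V (ATP synthase) uses the resulting proton gradient to make ATP. In each, most subunits are made from nuclear genes and the rest in the mitochondrion. Several complex IV subunits come in pairs, with a widely expressed form (Cox6a1, Cox7a2, Cox8a) and a form typical of heart and skeletal muscle (Cox6a2, Cox7a1, Cox8b), and the muscle forms become more prominent as the heart matures after birth.

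Depth was 19274045 to 26820228 counts per library. Levels are given as CPM, the counts per 1e6 counted reads after TMM scaling, and 3 counts corresponded to 0.114 to 0.148 CPM. The error given with a log2 fold change is its standard error (SE). Cardiomyocyte markers were abundant in every library, with a sum over 7 genes of 49614 to 64544 CPM. Markers of testis (4 genes) and thymus (3 genes) summed to at most 0.197 CPM, and those of lung (3 genes) to at most 1.54 CPM. Xist, the RNA that coats the inactive X chromosome, was at 630 to 1061 CPM in all 3 P7 sham libraries and 1 P3 sham library and at most 0.873 CPM in the 7 others, where the Y-linked Ddx3y was at 42.9 to 51.0 CPM. At P7, banding and this class of library therefore cannot be told apart.

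The promoters of the paired complex IV genes are shown first, because their levels are compared pair by pair across the 4 groups. Of the 42 subunit genes, 32 had a promoter window in RefSeq (build GRCm38.p6), which runs from 250 bases before to 50 bases after the start of transcription. Sequences are printed 5′ to 3′ on the strand of the gene. Capitals mark matches, on either strand, to any of 6 motifs. The first was CCGGAA, the ETS core that the GABP factor (also called NRF-2) binds. For the respiratory factor NRF-1 the letters GCATGCGC were searched, and for the estrogen-related receptors the letters AAGGTCA. The E-box was taken as CAGCTG in the form common in muscle genes. The TATA box that marks some start sites was searched as TATAAA on both strands as well. The letters of YY1 were AAGATGGC. Overlapping matches run together. The windows were chr5:115348909-115349208, minus strand, for Cox6a1; chr9:79759804-79760103, minus strand, for Cox7a2; chr19:7217567-7217866, minus strand, for Cox8a; chr7:30183921-30184220, plus strand, for Cox7a1; and chr7:140900397-140900696, minus strand, for Cox8b.
Cox6a1 (widely expressed): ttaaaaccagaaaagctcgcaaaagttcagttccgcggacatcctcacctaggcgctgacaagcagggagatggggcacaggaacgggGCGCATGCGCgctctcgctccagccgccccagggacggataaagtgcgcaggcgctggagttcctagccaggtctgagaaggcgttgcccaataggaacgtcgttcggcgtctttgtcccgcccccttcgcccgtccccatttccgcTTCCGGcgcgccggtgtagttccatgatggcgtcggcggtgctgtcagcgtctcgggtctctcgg
Cox7a2 (widely expressed): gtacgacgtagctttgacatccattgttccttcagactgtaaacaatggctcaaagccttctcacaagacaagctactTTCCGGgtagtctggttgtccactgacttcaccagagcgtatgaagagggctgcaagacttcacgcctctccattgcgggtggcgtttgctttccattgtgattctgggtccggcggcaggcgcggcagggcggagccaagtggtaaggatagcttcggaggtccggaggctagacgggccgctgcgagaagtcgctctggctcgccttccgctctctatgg
Cox8a (widely expressed): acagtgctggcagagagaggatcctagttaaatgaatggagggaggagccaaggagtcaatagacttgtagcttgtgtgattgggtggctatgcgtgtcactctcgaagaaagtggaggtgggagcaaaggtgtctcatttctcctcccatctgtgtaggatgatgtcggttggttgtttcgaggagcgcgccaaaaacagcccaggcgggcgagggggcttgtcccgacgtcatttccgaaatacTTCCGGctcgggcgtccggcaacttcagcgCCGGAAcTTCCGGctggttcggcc
Cox7a1 (muscle form): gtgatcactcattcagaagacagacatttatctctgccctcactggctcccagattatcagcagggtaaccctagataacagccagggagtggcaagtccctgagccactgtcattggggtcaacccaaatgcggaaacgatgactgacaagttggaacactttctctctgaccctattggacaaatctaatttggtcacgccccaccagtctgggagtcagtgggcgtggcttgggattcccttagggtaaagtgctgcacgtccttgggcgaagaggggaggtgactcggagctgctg
Cox8b (muscle form): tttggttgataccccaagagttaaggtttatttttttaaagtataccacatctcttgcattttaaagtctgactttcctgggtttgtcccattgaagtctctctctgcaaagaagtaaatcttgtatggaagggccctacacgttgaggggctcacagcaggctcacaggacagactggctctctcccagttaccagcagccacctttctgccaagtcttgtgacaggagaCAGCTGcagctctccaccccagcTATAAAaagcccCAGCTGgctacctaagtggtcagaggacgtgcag

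The 3 windows of the widely expressed forms each held the ETS core, once in Cox6a1 and Cox7a2 and 3 times in Cox8a, and Cox6a1 also held overlapping NRF-1 matches. The windows of the muscle forms Cox7a1 and Cox8b held neither, and Cox6a2 had no window. Cox8b held the TATA letters between 2 E-boxes, starting at base 4 after the annotated start and so not where a TATA box usually lies, and Cox7a1 matched none of the 6 motifs. The CG dinucleotide occurred 32, 20 and 19 times in the windows of Cox6a1, Cox7a2 and Cox8a, against 7 times in Cox7a1 and 2 times in Cox8b. Over the 32 subunit genes with a window, 40.6% held the ETS core and 18.8% the NRF-1 letters, against 16.7% and 3.05% of the 27025 genes with a window. The letters for estrogen-related receptors stood in 12.5% of the subunit genes and 5.38% of all genes, those for YY1 in 9.38% and 3.19%, the E-box in 6.25% and 18.3%, and the TATA box in 9.38% and 15.7%. The median number of CG dinucleotides was 18.5 in the subunit windows and 7 in all windows. These matches describe the letters in the windows and not bound sites.

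At P7, the subunit genes stood higher in PAB than in sham hearts. All 42 tested members had a positive log2 fold change, from 0.07 to 1.26 (median 0.58), while the median over all 15808 genes tested was -0.0037. A call required a 1.5-fold difference or more together with an adjusted p (Benjamini-Hochberg, over all genes tested) no higher than 0.05 in edgeR's quasi-likelihood test, which was fitted to all 11 libraries. By this rule 21 of 42 rose and 0 fell, and no member had a negative change at an unadjusted p under 0.05. Among all genes tested, 9.63% rose and 8.59% fell. By adjusted p alone 38 of 42 were higher, against 22.8% of all genes, and in 37 of 42 both P7 PAB libraries lay above all 3 P7 sham libraries, against 30.8% of all genes. DESeq2 also called 21 higher and 0 lower. Reads counted on the 44 genes made up 1.88% to 2.10% of all counts in the P7 sham libraries and 2.75% to 2.84% in the P7 PAB libraries. Mitochondrial transcripts took 21.1% to 22.2% of counts in P7 sham and 18% and 18.1% in P7 PAB libraries, and their part in the member values was not tested. In bulk RNA, more cells of a type and more RNA per cell cannot be told apart.

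**Figure D1:**
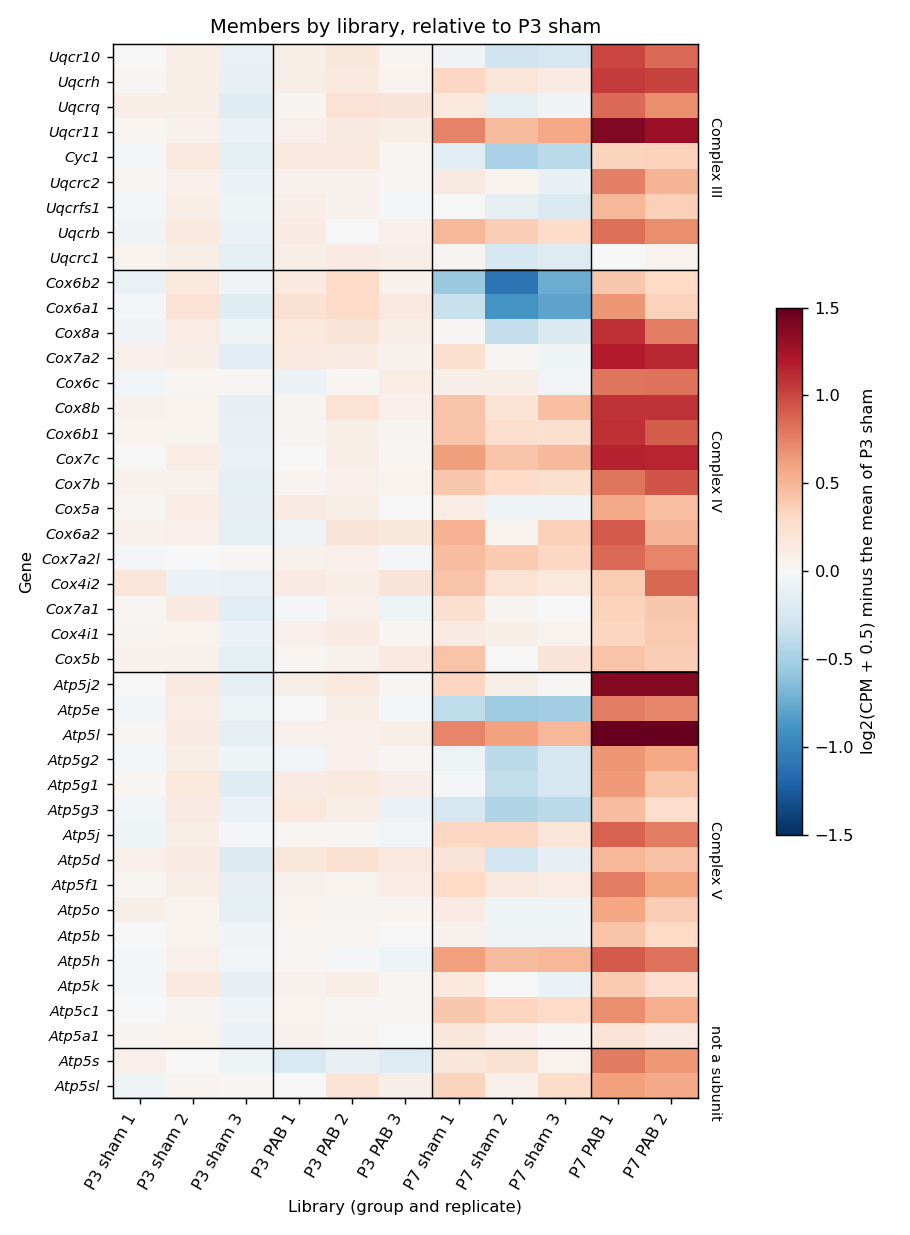
Level of each of the 42 tested members (rows, grouped by complex) in each of the 11 libraries (columns), as log2(CPM + 0.5) minus the mean of the 3 P3 sham libraries. Colour runs from blue (lower) to red (higher), and the 2 P7 PAB columns are red for nearly every gene while Cox6a1, Cox6b2, Cyc1 and Atp5e are blue in P7 sham.

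Changes at P7 leaned towards short genes across the whole transcriptome, and the subunit genes are short. The median log2 fold change over all genes with a known exonic length went from 0.36 in the shortest of 10 equal classes of length (up to 1500 bases) to -0.35 in the longest, and Spearman's rho across 15220 genes was -0.372. The slope of log2 CPM on log2 length was 0.60 and 0.61 in the P7 PAB libraries and 0.72 to 0.80 in the 9 others. The median exonic length was 1587 bases for 41 members and 4176 bases for all genes. Of these 41 members, 34 lay above the median of their own length class. With the trend of each library with exonic length removed, 12 of 42 members were called higher, against 7.41% of all genes, and 40 of 42 were positive, with a median of 0.43. These 12 were Atp5l, Atp5j2, Cox6b2, Atp5e, Cox6a1, Uqcr10, Cox8a, Cox7a2, Atp5g1, Cox6c, Atp5g2 and Uqcrh. The exonic length sums all annotated exons and can be far above that of the main transcript, as in Atp5l (6443 against 544 bases) and Cox6c (3567 against 738 bases). Across the 41 members, Spearman's rho of the P7 log2 fold change was -0.08 with exonic length and -0.33 with transcript length.

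**Figure D2:**
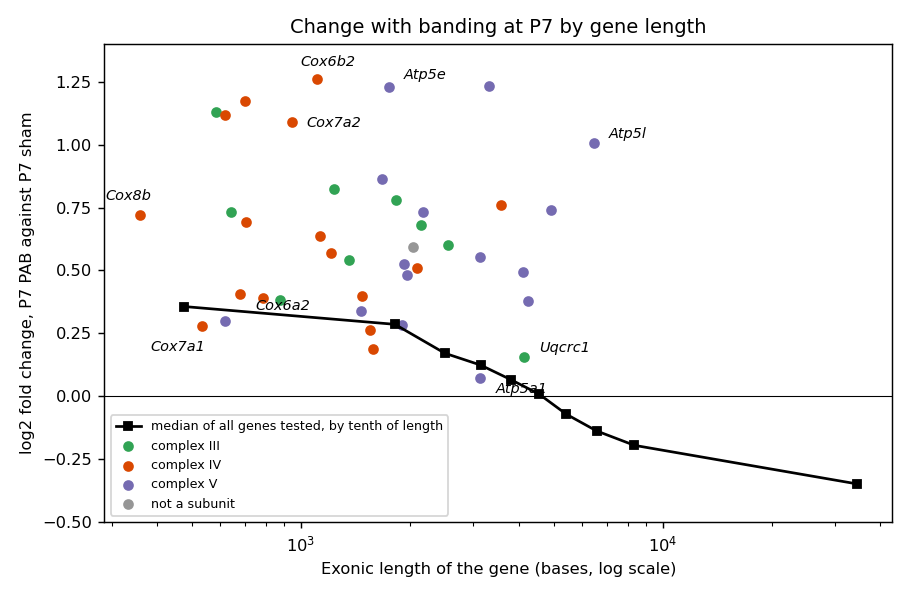
Log2 fold change of each member with a known length in P7 PAB against P7 sham hearts (vertical axis) against exonic length in bases (horizontal axis, log scale), coloured by complex. Black squares give the median of all genes tested in each of 10 length classes, from 0.36 in the shortest to -0.35 in the longest, and 34 of 41 members lie above the median of their class.

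In complex III, 6 of 9 members rose at P7, by log2 fold changes of up to 1.13, and 8 of 9 were higher by adjusted p alone. The largest rise was that of Uqcr10, a small membrane subunit. Its values were 191, 205 and 179.6 CPM in P3 sham, 203, 215 and 195 in P3 PAB, 185, 156 and 159 in P7 sham and 385 and 345 in P7 PAB hearts. Both P7 PAB libraries stood above every other library, and the log2 fold change at P7 was 1.13 ± 0.09 (SE, adjusted p = 6.86e-07). Uqcr11, another small subunit, measured 201, 206 and 183 CPM in P3 sham, 207, 217 and 209.9 in P3 PAB, 330.0, 272 and 293 in P7 sham and 515 and 477 in P7 PAB hearts. It was higher in P7 sham than in P3 hearts and higher again in P7 PAB hearts, where the log2 fold change over sham was 0.73 ± 0.09 (SE, adjusted p = 1.13e-05).

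The catalytic and core subunits of complex III differed in how far they moved. Cyc1, which carries the cytochrome c1 haem, was at 619, 695 and 572 CPM in P3 sham, 692, 694 and 641 in P3 PAB, 562, 448 and 472 in P7 sham and 787 and 796 in P7 PAB hearts. P7 sham libraries were the lowest and P7 PAB libraries the highest, with no overlap, and the log2 fold change at P7 was 0.68 ± 0.10 (SE, adjusted p = 6.82e-05). Uqcrfs1, the Rieske iron-sulphur protein, had a log2 fold change of 0.54 ± 0.08 (SE, adjusted p = 1.10e-04), which lies under 1.5-fold. Uqcrc1 and Uqcrc2 are the paired core proteins on the matrix side. Uqcrc2 rose by 0.60 ± 0.09 (SE, adjusted p = 8.90e-05) on the log2 scale, a call that was lost in 5 of 23 other settings. Its value was 0.56 with the replicate block, 0.45 with the length trend removed, 0.41 with both, 0.54 without P7 sham replicate 3 and 0.47 without P7 PAB replicate 1. Uqcrc1 measured 809.9, 658 and 684 CPM in P7 sham and 783 and 813 CPM in P7 PAB hearts. These ranges overlapped, and the log2 fold change of 0.15 ± 0.09 (SE, adjusted p = 0.193) did not pass the test. The remaining members, Uqcrh, Uqcrq and Uqcrb, had log2 fold changes of 0.82 ± 0.08, 0.78 ± 0.10 and 0.38 ± 0.09, of which the first 2 were called.

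In complex IV, 8 of the 16 tested members rose at P7 and 14 of 16 were higher by adjusted p alone. Cox6b2, known best as a testis form of the intermembrane-space subunit 6b, was at a low level. Its values were 4.98, 6.05 and 5.15 CPM in P3 sham, 5.98, 6.67 and 5.65 in P3 PAB, 3.5, 2.23 and 3.02 in P7 sham and 7.25 and 6.75 in P7 PAB hearts. P7 sham libraries were the lowest of the series, below every P3 library, and P7 PAB libraries stood above every P3 library, with a log2 fold change at P7 of 1.26 ± 0.17 (SE, adjusted p = 3.97e-05). The testis markers Prm1, Prm2, Tnp1 and Odf1 were at 0 in every P7 library. Cox6b1, the widely expressed form, was at 509 ± 37.6 CPM (SD, n = 3) in P7 sham and 821 ± 74.3 CPM (SD, n = 2) in P7 PAB hearts, a log2 fold change of 0.69 ± 0.08 (SE, adjusted p = 1.58e-05).

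The Cox4i and Cox5 subunits, which surround the catalytic core of complex IV, were not called. Cox4i1, the main form of the largest nuclear subunit, measured 939.7, 914 and 894 CPM in P7 sham and 1074 and 1128 CPM in P7 PAB hearts. The libraries did not overlap, but the log2 fold change was 0.27 ± 0.07 (SE, adjusted p = 0.00691), and 0.02 ± 0.07 (adjusted p = 0.795) with the length trend removed. Cox4i2, the form known from lung and from low oxygen, stayed between 4.88 and 9.90 CPM over all libraries and did not pass the test (0.39 ± 0.16, adjusted p = 0.0529). Cox5a, which binds Cox4i1 in early assembly, had a log2 fold change of 0.51 ± 0.08 (SE, adjusted p = 2.10e-04), and Cox5b, the zinc-binding subunit, one of 0.19 ± 0.11 (SE, adjusted p = 0.164) with overlapping libraries. Of the other small subunits, Cox6c, a single-form membrane subunit, had 0.76 ± 0.08, Cox7c 0.64 ± 0.08 and Cox7b 0.57 ± 0.08, the last under 1.5-fold. Cox7a2l, which helps to join complexes III and IV into a supercomplex, had 0.40 ± 0.07 and was not called.

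In complex V, 6 of 15 members rose at P7 and 14 of 15 were higher by adjusted p alone. The subunits of the catalytic F1 head spread over nearly the whole range of the members. Atp5a1, the alpha subunit and among the most abundant members, measured 3619, 3380.4 and 3267 CPM in P7 sham and 3706 and 3498 CPM in P7 PAB hearts. These ranges overlapped, and the log2 fold change was 0.07 ± 0.07 (SE, adjusted p = 0.436). Atp5b, the catalytic beta subunit, was at 4081, 3785 and 3775 CPM in P7 sham and 5275 and 4809 CPM in P7 PAB hearts, with no overlap and a log2 fold change of 0.38 ± 0.07 (SE, adjusted p = 5.29e-04). For Atp5c1 and Atp5d, the gamma and delta subunits of the central stalk, the log2 fold changes were 0.28 ± 0.07 and 0.53 ± 0.12, both under 1.5-fold. Atp5e, the small epsilon subunit of the same stalk, measured 174, 194 and 170.0 CPM in P3 sham, 179, 189.6 and 177 in P3 PAB, 137, 123 and 125 in P7 sham and 304 and 297 in P7 PAB hearts. Its P7 sham libraries were the lowest and its P7 PAB libraries the highest of the series, and the log2 fold change at P7 was 1.23 ± 0.08 (SE, adjusted p = 9.44e-08).

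In the membrane part of complex V, the c ring that turns as protons pass is made from 3 genes with the same mature protein. All 3 rose at P7, by log2 fold changes of 0.74 ± 0.11 (SE, adjusted p = 7.12e-05) for Atp5g1, 0.87 ± 0.09 (SE, adjusted p = 4.08e-06) for Atp5g2 and 0.73 ± 0.10 (SE, adjusted p = 3.13e-05) for Atp5g3. With the length trend removed Atp5g3 was at 0.54 ± 0.09 and was not called, while Atp5g1 and Atp5g2 still were. Atp5j2 and Atp5l, the f and g subunits beside the ring, rose further. Atp5j2 was at 242, 264 and 219 CPM in P3 sham, 255, 267 and 244 in P3 PAB, 300.5, 256 and 244 in P7 sham and 626 and 628 in P7 PAB hearts, and Atp5l at 246, 265 and 221 CPM in P3 sham, 256, 257 and 260.2 in P3 PAB, 406, 369.6 and 343 in P7 sham and 771 and 725 in P7 PAB hearts. Atp5j2 overlapped between P3 and P7 sham hearts, whereas Atp5l was already higher in P7 sham than in P3 hearts. Their log2 fold changes at P7 were 1.23 ± 0.09 (SE, adjusted p = 5.65e-07) and 1.01 ± 0.09 (SE, adjusted p = 1.19e-06). Atp5k, the e subunit that pairs with Atp5l, had 0.30 ± 0.09 (SE, adjusted p = 0.0145). The stalk subunits Atp5f1, Atp5h, Atp5j and Atp5o, which hold the head still against the ring, ranged from 0.34 ± 0.07 (Atp5h) to 0.55 ± 0.08 (Atp5j), and none was called. Exons of Atp5j and Atp5f1 overlap those of Gabpa and Wdr77 on the opposite strand, with total counts 19.3% and 7.48% as large. The counting strand is not given in the sources used here, so that reads of these pairs may be mixed. Of the 43 members with a transcript in the annotation, 15 had a stretch of at least 100 bases with 98% identity or more in another gene, and in 5 of these the other gene took over 1% of the counts of both (Atp5f1, Atp5g1, Atp5g2, Atp5j and Cox4i1).

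Atp5s and Atp5sl, the 2 members that are not subunits, had log2 fold changes of 0.59 ± 0.10 (SE, adjusted p = 2.73e-04) and 0.36 ± 0.09 (SE, adjusted p = 0.00367) at P7, and Atp5s was called.

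At P3, no member was called in either direction by edgeR or DESeq2, and none passed an unadjusted p of 0.05. Among all genes tested, 0.108% rose and 0.019% fell at this age. The log2 fold changes of the 42 members lay between -0.19 (Atp5s) and 0.22 (Cox6a1), 39 of them positive, and their standard errors between 0.063 and 0.15. The median of 0.07 became 0.015 without P3 sham replicate 3 and 0.12 without P3 sham replicate 2. With scaling by the total count 31 were positive and the median was 0.030 (-0.043 over all genes). With the length trend removed 30 were positive and the median was 0.033 (0.0042 over all genes). The lowest adjusted p was 0.632. The P3 PAB libraries lay above all P3 sham libraries in 2 of 42 members (Uqcr11 and Atp5d) and below them in 1 (Atp5s), against 8.65% and 8.02% of all genes. On simulated counts of these libraries, 84.0% of genes changed 2-fold were recovered at P3. The 200 genes changed were picked at random from all tested, and recovery of smaller changes was not tested.

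**Figure D3:**
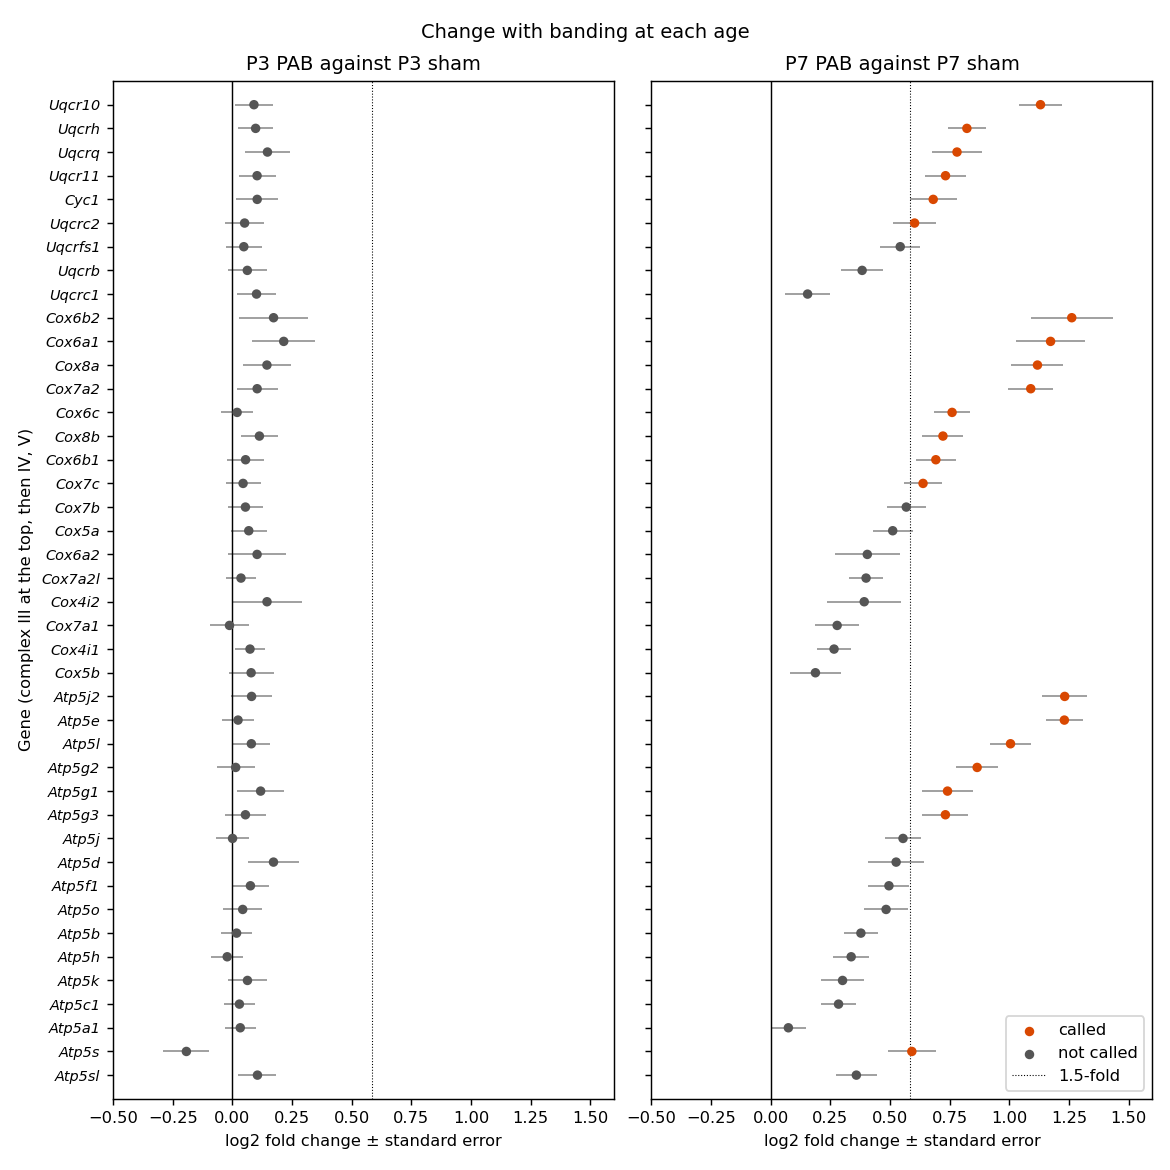
Log2 fold change with its standard error (horizontal axis) for each of the 42 tested members (rows) in PAB against sham hearts at P3 (left) and P7 (right). Filled orange points were called at 1.5-fold (dotted line) and adjusted p of at most 0.05, which 0 members were at P3 and 21 at P7.

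Whether banding acted differently at the 2 ages was tested as an interaction of age and operation, given as the log2 fold change at P7 minus that at P3. By adjusted p it was positive in 30 of 42 members and negative in 0, against 13.3% and 12.6% of all genes. No member was negative at an unadjusted p under 0.05. It was largest for Atp5e (1.21 ± 0.10, adjusted p = 9.30e-06), Atp5j2 (1.15 ± 0.13, adjusted p = 6.74e-05), Cox6b2 (1.09 ± 0.22, adjusted p = 0.00304) and Uqcr10 (1.04 ± 0.12, adjusted p = 9.66e-05). Members that did not pass it were Uqcrc1, Uqcrb, Cox4i1, Cox4i2, Cox5b, Cox6a2, Cox7a1, Atp5a1, Atp5c1, Atp5d, Atp5k and Atp5sl. Of the 3 muscle forms, Cox6a2 and Cox7a1 are among these, with interactions of 0.30 ± 0.18 and 0.29 ± 0.12, and Cox8b passed the test (0.61 ± 0.12, adjusted p = 0.00199). Of the widely expressed forms, Cox6a1, Cox7a2 and Cox8a had 0.96 ± 0.20, 0.99 ± 0.13 and 0.97 ± 0.15, all past the test.

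From P3 to P7 in sham hearts, 2 members rose and 2 fell, and the median log2 fold change was 0.09. Among all genes tested, 5.62% rose and 5.73% fell. Atp5l and Uqcr11 rose, by log2 fold changes of 0.61 ± 0.08 (SE, adjusted p = 4.90e-05) and 0.60 ± 0.08 (SE, adjusted p = 4.84e-05). With the length trend removed Uqcr11 was at 0.30 ± 0.06 and was not called. Cox6b2 and Cox6a1 fell, with log2 fold changes of -0.89 ± 0.16 (SE, adjusted p = 6.73e-04) and -0.67 ± 0.13 (SE, adjusted p = 0.00147). By adjusted p alone, 13 of 42 were higher and 6 lower, against 16.2% and 16.8% of all genes. The other 4 lower ones were Atp5e (-0.48 ± 0.07), Atp5g3 (-0.37 ± 0.09), Cyc1 (-0.35 ± 0.09) and Atp5g2 (-0.24 ± 0.08). Direction with age depended on scaling. Mitochondrial transcripts took 11.5% to 12.6% of counts in P3 sham and 21.1% to 22.2% in P7 sham libraries, and their part in this was not tested. Scaling by the total count moved the median of all genes by about -0.31, and then 10 rather than 26 of 42 members were positive, with 0 rising and 5 falling (Atp5e, Atp5g3, Cyc1, Cox6a1 and Cox6b2). Of all genes, 2.51% then rose and 18.2% fell. The number that rose was also 0 without P3 sham replicate 3 or without P7 sham replicate 1, and the number that fell was 1 without P3 sham replicate 2 or without P7 sham replicate 2.

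From P3 to P7 in PAB hearts, 23 of 42 members rose and 0 fell (none at an unadjusted p under 0.05), and their median log2 fold change was 0.60. Of all genes tested, 9.5% rose and 8.2% fell. The largest were those of Atp5l (1.54 ± 0.09, adjusted p = 2.26e-08), Atp5j2 (1.29 ± 0.09, adjusted p = 3.09e-07), Uqcr11 (1.23 ± 0.09, adjusted p = 2.22e-07), Cox7c (1.11 ± 0.08, adjusted p = 3.09e-07) and Cox7a2 (1.05 ± 0.10, adjusted p = 1.55e-06). Uqcrc1 was the only member with a negative value (-0.08 ± 0.09). With the length trend removed 11 were called higher (7.2% of all genes) and 37 were positive, with a median of 0.38. Scaling by the total count also left 11 called higher (4.08% of all genes), with 38 positive and a median of 0.35. Mitochondrial transcripts took 11.4% to 13.1% of counts in the P3 PAB libraries, against the 18% and 18.1% at P7 given above. This comparison shares its P7 PAB libraries with that between P7 PAB and P7 sham.

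The isoform pairs of complex IV were compared within each library, where scaling between libraries has no part. The gene of the muscle form Cox6a2 is at chr7:128205435-128206387 (minus strand) and that of Cox6a1 at chr5:115345642-115348981 (minus strand, GENCODE M21 on GRCm38). Cox6a2 was at 473, 475 and 408 CPM in P3 sham, 433, 515 and 508 in P3 PAB, 648, 467 and 577 in P7 sham and 851 and 642 in P7 PAB hearts. Its P7 PAB range overlapped that of P7 sham, and its log2 fold change at P7 was 0.40 ± 0.14 (SE, adjusted p = 0.0238), under 1.5-fold, and 0.18 ± 0.12 (adjusted p = 0.242) with the length trend removed. Cox6a1 was at 165, 196 and 149 CPM in P3 sham, 198, 207 and 188 in P3 PAB, 134, 90.5 and 97.9 in P7 sham and 269 and 216 in P7 PAB hearts. It was lowest in P7 sham and highest in P7 PAB hearts, with a fold of 2.25 between them and a log2 fold change of 1.17 ± 0.15 (SE, adjusted p = 1.91e-05).

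The log2 ratio of Cox6a2 to Cox6a1 counts was 1.52, 1.27 and 1.45 in P3 sham, 1.13, 1.31 and 1.43 in P3 PAB, 2.27, 2.37 and 2.56 in P7 sham and 1.66 and 1.57 in P7 PAB hearts. All P7 sham values lay above all others, and both P7 PAB values lay between P7 sham and P3. Per length of the main transcripts, Cox6a2 was 2.24 times Cox6a1 in P3 sham and 4.43 times in P7 sham, but 2.58 times in P7 PAB hearts. Over both operations, the ratio was 0.66 higher at P7 than at P3 (exact stratified permutation test, two-sided, p = 0.01, the smallest possible, and adjusted p = 0.12 over the 24 pair tests). It was lower in PAB than in sham hearts by an average of 0.45 (p = 0.04 by the exact permutation test, adjusted p = 0.24). That p exceeded 0.05 when each of 8 libraries was left out in turn, among them both P7 PAB and all 3 P7 sham libraries (p of up to 0.1), while the difference stayed between -0.49 and -0.41. The exonic lengths of the pair were 680 bases for Cox6a2 and 702 for Cox6a1.

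**Figure D4:**
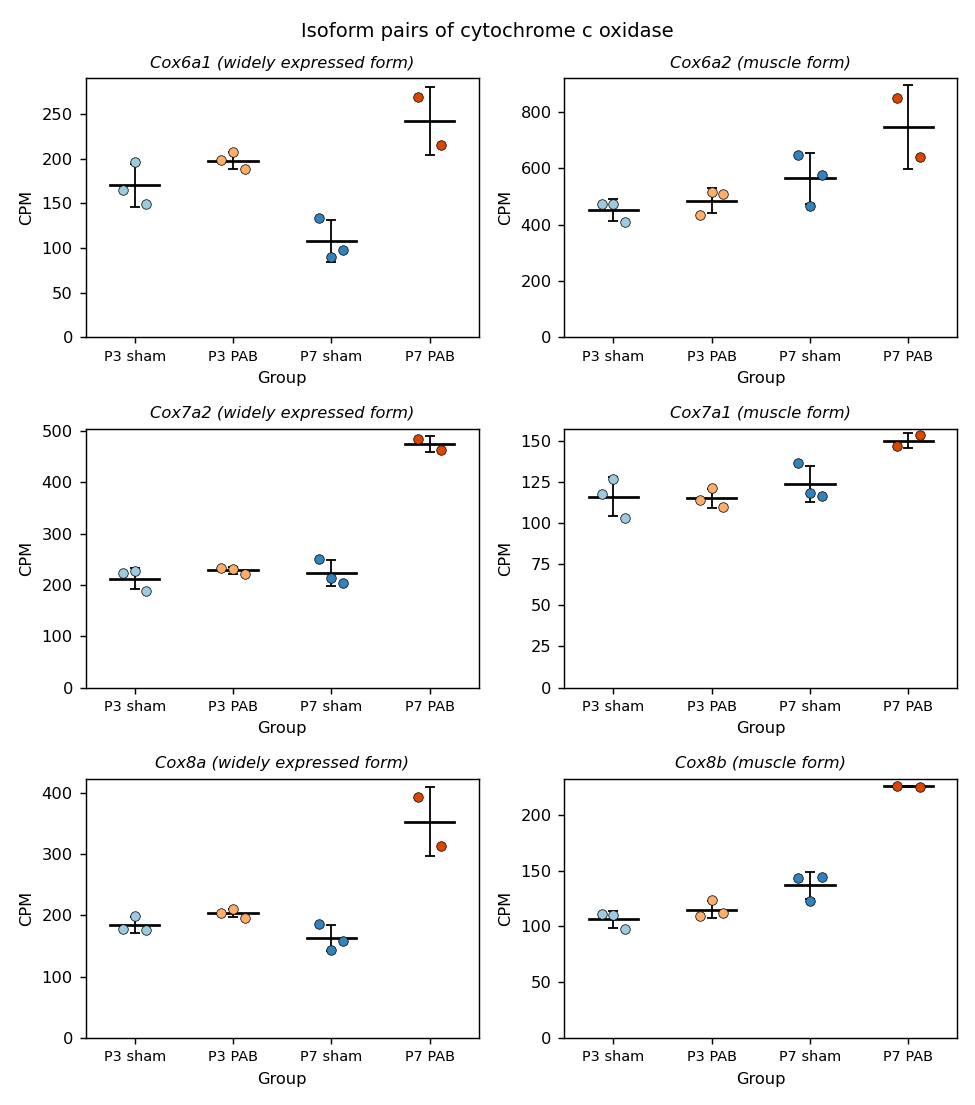
Level of the widely expressed form (left) and the muscle form (right) of 3 complex IV subunits, in CPM (vertical axes from 0) by group. Points are libraries, lines are means and bars are the SD (n = 3, or 2 for P7 PAB). The widely expressed forms all sit higher in both P7 PAB libraries than in any other library, and Cox7a1 differs least at P7 (log2 fold change 0.28).

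Cox7a1 (chr7:30184144-30186078, plus strand) and Cox7a2 (chr9:79755361-79759878, minus strand) form the next pair. Cox7a2 measured 223, 227 and 188 CPM in P3 sham, 234, 230.4 and 221 in P3 PAB, 251, 214 and 203 in P7 sham and 485 and 463 in P7 PAB hearts. Sham and PAB hearts at P3 and sham hearts at P7 shared 1 range, and both P7 PAB libraries stood well above it, with a log2 fold change at P7 of 1.09 ± 0.10 (SE, adjusted p = 1.30e-06). Cox7a1 measured 118, 127 and 103 CPM in P3 sham, 114, 122 and 109.7 in P3 PAB, 137, 119 and 117 in P7 sham and 147 and 154 in P7 PAB hearts. Its P7 PAB libraries lay above the others by a small margin, and its log2 fold change of 0.28 ± 0.09 (SE, adjusted p = 0.0214) was under 1.5-fold and became 0.07 ± 0.07 (adjusted p = 0.489) with the length trend removed.

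The log2 ratio of Cox7a1 to Cox7a2 counts was -0.92, -0.84 and -0.87 in P3 sham, -1.04, -0.92 and -1.01 in P3 PAB, -0.88, -0.85 and -0.80 in P7 sham and -1.72 and -1.59 in P7 PAB hearts. P3 PAB values were all below P3 sham values, by a narrow margin, and the P7 PAB values were far below every other library. The PAB hearts were lower by an average of 0.46 (exact stratified permutation test, two-sided, p = 0.01, the smallest possible, and adjusted p = 0.12). At P7 alone the difference was -0.81, where 3 against 2 libraries cannot give a permutation p below 0.2, and at P3 it was -0.12 (exact permutation p = 0.1, the smallest possible there). Between ages the ratio was -0.32 at P7 relative to P3 over both operations (exact permutation p = 0.16), and -0.54 with the length trend removed (exact permutation p = 0.01, the smallest possible). In sham hearts alone the ratio differed between ages by 0.03 with the length trend left in (exact permutation p = 0.5). Per transcript length, Cox7a1 was 0.934 times Cox7a2 in P7 sham and 0.531 times in P7 PAB hearts. The exonic lengths of the pair were 535 bases for Cox7a1 and 944 for Cox7a2. With the length trend removed the difference between operations was -0.46 (exact permutation p = 0.01).

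Cox8b (chr7:140898945-140900446, minus strand) and Cox8a (chr19:7215153-7217616, minus strand) both rose at P7. Cox8a was at 178, 199 and 175 CPM in P3 sham, 205, 209.6 and 196 in P3 PAB, 187, 144 and 158 in P7 sham and 393 and 313 in P7 PAB hearts, with a log2 fold change at P7 of 1.12 ± 0.11 (SE, adjusted p = 3.00e-06). Cox8b was at 111, 111 and 97.5 CPM in P3 sham, 109, 124 and 112 in P3 PAB, 143, 123 and 145 in P7 sham and 226 and 225 in P7 PAB hearts, with one of 0.72 ± 0.09 (SE, adjusted p = 1.43e-05). With the length trend removed, the change at P7 was 0.90 ± 0.09 for Cox8a, still called. For Cox8b it was then 0.52 ± 0.07, under 1.5-fold and not called. Cox8b was also higher in P7 sham than in P3 sham hearts (0.36 ± 0.08, adjusted p = 0.00262, under 1.5-fold), where Cox8a had -0.18 ± 0.10 (SE, adjusted p = 0.189). The direction of Cox8b turned with the length trend, since Cox8b was at -0.17 ± 0.07 and Cox8a at -0.49 ± 0.08 with the length trend removed, and at 0.05 ± 0.08 and -0.49 ± 0.09 with scaling by the total count. The log2 ratio of Cox8b to Cox8a counts was -0.68, -0.85 and -0.84 in P3 sham, -0.90, -0.76 and -0.81 in P3 PAB, -0.38, -0.23 and -0.13 in P7 sham and -0.80 and -0.47 in P7 PAB hearts. It was highest in P7 sham hearts, while 1 P7 PAB value lay within the P3 range and the other between that range and P7 sham. Its difference between ages was 0.37 (exact permutation p = 0.02, adjusted p = 0.16), which fell to 0.15 with the length trend removed (exact permutation p = 0.15). Between operations it differed by -0.21 (exact permutation p = 0.08, adjusted p = 0.267), by -0.13 without P7 PAB replicate 1 and by -0.29 without P7 PAB replicate 2.

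Cox4i2 counts stayed far below those of Cox4i1 in every library, with a log2 ratio of -7.19, -7.50 and -7.37 in P3 sham, -7.30, -7.36 and -7.18 in P3 PAB, -7.02, -7.21 and -7.24 in P7 sham and -7.26 and -6.83 in P7 PAB hearts. The groups overlapped, and the difference between operations was 0.09 (exact permutation p = 0.37, adjusted p = 0.457). None of the 24 pair tests passed after adjustment. The smallest possible p was 0.01 in tests over all libraries and 0.1 or 0.2 in tests within a single age or operation. With so few libraries, the adjustment left little room for any test to pass. Brown fat also uses Cox7a1 and Cox8b. Its marker Ucp1 was at most 0.0972 CPM in any library, and Elovl3 and Adipoq were at 0 in all P7 libraries. Another of the 6 brown fat markers, Cidea, was at 24.7, 18.9 and 19.9 CPM in P7 sham and 41.4 and 37.6 CPM in P7 PAB hearts and rose by 0.90 ± 0.12 (SE, adjusted p = 2.46e-05) on the log2 scale. The part of brown fat in these values was not tested. The 8 skeletal muscle markers summed to 3.26 to 3.84 CPM in P7 sham and 4.88 to 5.46 CPM in P7 PAB hearts.

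**Figure D5:**
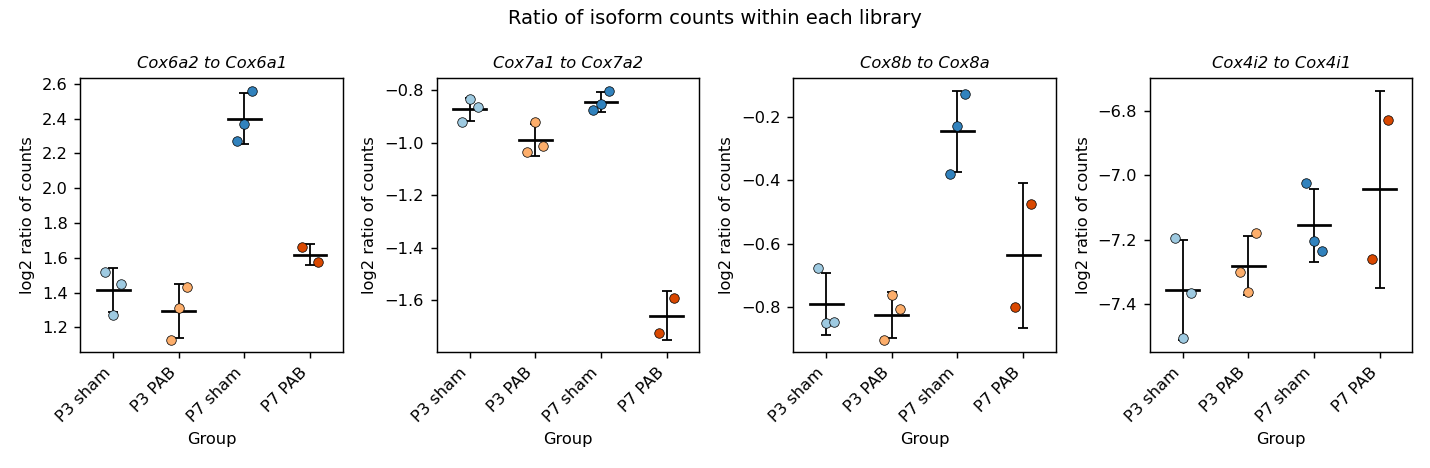
Log2 ratio of the counts of 2 isoform genes within each library (vertical axes) by group for 4 pairs of complex IV. Points are libraries, lines are means and bars are the SD. Cox6a2 to Cox6a1 is highest in P7 sham (2.27 to 2.56) and Cox7a1 to Cox7a2 lowest in P7 PAB (-1.72 and -1.59), while Cox4i2 to Cox4i1 overlaps between groups.

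A further list held subunits of complexes IV and V with other names (Ndufa4, Usmg5 and 2010107E04Rik) and the 2 genes of cytochrome c, the carrier between complexes III and IV (Cycs, and Cyct, which was not tested). At P7, 3 of the 4 tested rose, all of them subunits, by log2 fold changes of 0.89 ± 0.08 (SE, adjusted p = 1.25e-06) for the complex IV subunit Ndufa4, 1.17 ± 0.08 (SE, adjusted p = 3.19e-07) for Usmg5 and 1.27 ± 0.09 (SE, adjusted p = 1.86e-07) for 2010107E04Rik, the last 2 being small membrane subunits of ATP synthase. Cycs had 0.52 ± 0.10 (SE, adjusted p = 6.68e-04), under 1.5-fold. Of 36 nuclear genes of complex I, 15 rose and 0 fell, against 9.63% and 8.59% of all genes. None of the 36 was lower at an unadjusted p under 0.05, and their median log2 fold change was 0.53. Of 4 complex II genes, only Sdhd rose (0.74 ± 0.08, adjusted p = 5.22e-06).

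Assembly factors help to build the complexes without staying in them. Of 24 tested complex IV assembly factors, 8 rose and 0 fell at P7 (none at an unadjusted p under 0.05), with a median of 0.44. Among all genes tested, 9.63% rose and 8.59% fell. The 8 included Cox19 (0.98 ± 0.11) and Higd1a (0.92 ± 0.11). Of 6 for complex III only Uqcc2 rose (1.02 ± 0.11), and of 4 for complex V none was called by edgeR. By adjusted p alone 3 of these 4 were higher, against 22.8% of all genes, and 4 were higher at an unadjusted p under 0.05. Values with the length trend removed are not given for the assembly factors or for complexes I and II.

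Of the 6 subunits of complexes III to V made in the mitochondrion, mt-Co2, mt-Co3 and mt-Atp6 rose at P7 by log2 fold changes of 2.77 ± 0.11, 2.84 ± 0.11 and 1.5 ± 0.11, and mt-Atp8 fell (-0.80 ± 0.10, adjusted p = 1.58e-05). mt-Cytb and mt-Co1 had -0.32 ± 0.08 and -0.24 ± 0.07, under 1.5-fold. From P3 to P7 in sham hearts mt-Co2, mt-Co3 and mt-Atp6 fell, with log2 fold changes of -2.67 ± 0.10, -3.04 ± 0.11 and -1.82 ± 0.10, and the other 3 rose. The genes mt-Atp6 and mt-Atp8 overlap, so that their reads may be split by the counting. Of the 7 complex I subunits made in the mitochondrion, mt-Nd3 rose (0.88 ± 0.09, adjusted p = 3.76e-06), mt-Nd5 and mt-Nd6 fell (-0.94 ± 0.11 and -0.81 ± 0.11), and the median was -0.38.

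At P7, 9.63% of all genes tested rose and 8.59% fell. Of 19 transcriptional regulators of the subunit genes, none rose (1 was higher at an unadjusted p under 0.05) and 3 fell. They were the coactivators Ppargc1a (-1.25 ± 0.14, adjusted p = 6.74e-06) and Ppargc1b (-0.69 ± 0.10, adjusted p = 5.08e-05) and the fatty acid receptor Ppara (-1.11 ± 0.10, adjusted p = 1.77e-06). Gabpa, whose protein binds the ETS core, was lower by less than 1.5-fold (-0.55 ± 0.08) and so was not called. Nrf1 was at 0.14 ± 0.08 and was not called either. Gabpa shares exons with Atp5j, as given above. By adjusted p alone 10 of the 19 were lower and 1, Esrrb, was higher (0.47 ± 0.11), against 22.1% and 22.8% of all genes. Changes at P7 leaned towards short genes, and values with the length trend removed are not given for the regulators.

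Endothelial markers (5 genes) summed to 1213 to 1257 CPM in P7 sham and 912 to 973 CPM in P7 PAB hearts, and fibroblast markers (6 genes) to 5827 to 5911 and 4428 to 5272 CPM. Smooth muscle markers (4 genes) summed to 559 to 754 and 795 to 977 CPM, atrial markers (3 genes) to 53.6 to 98.3 and 135 to 158 CPM, and erythroid markers (7 genes) to 2247 to 3044 and 3412 to 3912 CPM. Brown fat markers (6 genes) summed to 20.9 to 27.5 and 39.7 to 42.8 CPM. Among 7 cardiomyocyte markers, Actc1 rose and Myh6 and Ryr2 fell, and the sum was 55537 to 64544 CPM in P7 sham and 49614 to 55796 CPM in P7 PAB hearts. Their part in the member values was not tested.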

How the data were processed

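RNA was sequenced from 11 mouse heart samples in 4 groups taken from the labels. The authors aligned reads with STAR 2.5.2b to GRCm38 (mm10) with GENCODE gene models, and the deposited values are whole-number counts per gene. The GENCODE release, the counting tool and the strand setting are not given in the sources used here.

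Genes were filtered with filterByExpr (15808 of 50600 kept) and scaled by TMM. They were tested with edgeR 4.0.16 (quasi-likelihood, R 4.3.3), with Benjamini-Hochberg adjustment over all genes and 1 spread shared by the 4 groups. Isoform ratios were log2 ratios of counts in 1 library, with 0.5 added to each count, and were tested by exact permutation within age or operation. DESeq2 1.42.0 served as an alternative. The other alternatives changed the scaling, the filter, the fold threshold, the libraries fitted, the block and the length trend (lowess, span 0.3). Lengths and positions came from GENCODE M21 (43 of 44 members matched), copies from BLAST+ 2.17.0 and promoters from RefSeq. The procedure was tested on simulated data, where 84% of 2-fold changes were recovered at P3 (15569 genes) and 77.5% at P7 (15573 genes).

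Members and gene lists were chosen with earlier results of these data known. Named genes were the isoform sets, the core subunits, the largest called changes of at least 10 CPM, and members made uncertain by a setting or an overlapping gene. A few further members were named after their values were seen, to account for every subunit. The floor of 3 counts covers counting error only.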

Additional observations from a re-analysis of the deposited data

Results flagged for a closer look

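The difference that banding made at P7 differed from the one at P3 in 30 of 42 members by the interaction test of edgeR, positive in all 30. Groups of 2 to 3 libraries were not tested for outliers. The values below are the log2 fold change at P7 minus that at P3, and each passed an adjusted p of 0.05. Those of the isoform sets, the core subunits and the largest called changes are given first. In complex III they were 1.04 for Uqcr10, 0.63 for Uqcr11, 0.58 for Cyc1, 0.55 for Uqcrc2 and 0.49 for Uqcrfs1. In complex IV, the isoform genes had 1.09 for Cox6b2, 0.99 for Cox7a2, 0.97 for Cox8a, 0.96 for Cox6a1, 0.64 for Cox6b1, 0.61 for Cox8b, 0.51 for Cox7b and 0.36 for Cox7a2l. Of the other complex IV members covered, Cox7c had 0.59 and Cox5a 0.44. In complex V, Atp5e had 1.21, Atp5j2 1.15 and Atp5l 0.93. The c ring genes had 0.85 for Atp5g2, 0.68 for Atp5g3 and 0.62 for Atp5g1, and the catalytic Atp5b had 0.36. The other members that passed were Atp5s (0.78), Cox6c (0.74), Uqcrh (0.72), Uqcrq (0.63), Atp5j (0.55), Atp5o (0.44), Atp5f1 (0.42) and Atp5h (0.36). How these others depend on the settings is not given here. The interactions of Atp5b, Cox5a and Cox7a2l no longer passed without P7 PAB replicate 1 (0.29, 0.38 and 0.31). With the length trend removed those of Cox5a (0.27) and Cox7a2l (0.17) did not pass, nor did they with the replicate block as well (0.24 and 0.16). With the class by Xist as a term, which within a group rests on 1 library, those of Atp5b (0.37) and Cox7a2l (0.34) did not pass.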

How the results depend on the processing

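The counts of members called were within 1.5 times the reported ones under RLE size factors, no filter, a stricter filter, DESeq2 and fits of the 2 groups compared alone. With each library scaled by its total count, 0 members were higher and 5 lower with age in sham hearts, and 11 higher with age in PAB hearts. Without a fold threshold, 38 were higher at P7 with banding, 13 higher and 6 lower with age in sham hearts, and 36 higher with age in PAB hearts (22.3% of all genes). With the length trend removed, these were 12, 1 higher with age in sham and 11 higher with age in PAB hearts (7.41%, 5.62% and 7.2% of all genes), and the age ratios were -0.54 for Cox7a1 to Cox7a2 (exact permutation p = 0.01, against -0.32 and p = 0.16 without this step) and 0.15 for Cox8b to Cox8a. The class by Xist as a term left 1 higher with age in sham hearts (3.88% of all genes), but within a group it rests on 1 library, so that counts with this term bear on no P7 result. Leaving out 1 library gave 0 to 2 higher and 1 to 2 lower with age in sham hearts, and 19 to 25 higher at P7 with banding. The PAB ratio ranged from -0.49 to -0.41 for Cox6a2 to Cox6a1, and for Cox4i2 to Cox4i1 from -0.015 (without P7 PAB replicate 2, a reversed sign) to 0.20, with 0.11 to 0.33 for age.

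Whether replicate numbers pair the libraries was not settled. Deviations of 15 same-numbered pairs correlated at -0.0998 to 0.144, with 1 above 0.1, and differently numbered pairs were not compared. With the replicate block 19 members were higher at P7 with banding, 2 higher and 2 lower with age in sham hearts and 21 higher with age in PAB hearts (8.96%, 5.67%, 5.82% and 8.89% of all genes). With the block and the length trend removed the counts were 11, 1 higher with age in sham and 10 higher with age in PAB hearts (6.81%, 5.61% and 6.86% of all genes). Of 58 values of named members, 56 kept their call with the block, 49 with total count scaling and 38 with the length trend removed, and none reversed under these. P7 PAB, with 2 libraries, limits every comparison it enters.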
